A study of Mus musculus with 10 samples.

Results

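Slc15a2, Misp, Tnfrsf25, Depp1 and Vsig2 are 5 genes whose transcripts were lower in left ventricles of mice given osimertinib than in those given placebo. They were chosen by that difference, from the 45706 genes of the deposited table, because they fell under both scalings of the values used here or had the largest falls, and all 5 met the first condition. Their osimertinib to placebo contrast is therefore given as a description, with no test and nothing supported by it. The genes were matched by symbol, and each symbol occurred once.

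Poly(A) RNA from the left ventricle of mouse hearts was sequenced in 10 libraries. All 10 were labelled TAC, the usual abbreviation for transverse aortic constriction. This is a band on the aorta that makes the left ventricle pump against raised pressure. The control group held 5 libraries labelled TAC placebo with vehicle as the treatment, and the other 5 libraries were labelled TAC osimertinib. Osimertinib is a lung cancer drug that blocks the kinase of the epidermal growth factor receptor, and the series asks how it injures the heart. Both groups carried TAC, so the comparison holds no unbanded heart and no unbanded heart given the drug. The sources used here do not give strain, sex, age, dose or duration, and nothing states that each library came from a separate animal. Error and p-values then measure the spread between these libraries.

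The 5 genes belong to different systems. Slc15a2 encodes PEPT2, a proton-coupled carrier that brings dipeptides and tripeptides into cells and is best known from kidney and choroid plexus. Tnfrsf25 encodes death receptor 3, a tumour necrosis factor receptor that binds the ligand TL1A, signals through the adaptor TRADD and is best known from T cells. Misp encodes an actin-bundling protein of the cell cortex that helps to place the mitotic spindle. Depp1 encodes a small protein that is induced by FOXO transcription factors and has been linked to autophagy. Vsig2 encodes a membrane protein of the immunoglobulin superfamily that resembles the CTX group of adhesion molecules.

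Annotation by GENCODE M21 on GRCm38 placed the genes on 5 chromosomes. Slc15a2 (ENSMUSG00000022899) lay on the minus strand at chr16:36750177-36784962, with 7361 exonic bases. Misp (ENSMUSG00000035852) lay on the plus strand at chr10:79820989-79830490, with 2848 exonic bases. Tnfrsf25 (ENSMUSG00000024793) lay on the plus strand at chr4:152115934-152120119, with 2277 exonic bases. Depp1 (ENSMUSG00000048489) lay on the plus strand at chr6:116650609-116652794, with 1358 exonic bases, inside Rassf4, which runs on the opposite strand and shared 0 exonic bases with it. Vsig2 (ENSMUSG00000001943) lay on the plus strand at chr9:37539255-37544205, with 1979 exonic bases.

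RefSeq promoter windows on GRCm38.p6, running from 250 bases before to 50 bases after the transcription start, were found for 3 of the 5 genes. They are shown because the 3 transcripts differed in the same direction between the groups, so that their start regions can be read side by side. Each is written 5′ to 3′ on the strand of the gene, and capitals mark matches on either strand to AGAACA (read TGTTCT on the other strand), a glucocorticoid receptor half-site, or to GGAAAA (read TTTTCC), a core bound by NFAT factors. The windows are chr16:36784913-36785212 on the minus strand for Slc15a2, chr4:152115684-152115983 on the plus strand for the upstream of 2 Tnfrsf25 windows, and chr6:116650434-116650733 on the plus strand for Depp1.
Slc15a2: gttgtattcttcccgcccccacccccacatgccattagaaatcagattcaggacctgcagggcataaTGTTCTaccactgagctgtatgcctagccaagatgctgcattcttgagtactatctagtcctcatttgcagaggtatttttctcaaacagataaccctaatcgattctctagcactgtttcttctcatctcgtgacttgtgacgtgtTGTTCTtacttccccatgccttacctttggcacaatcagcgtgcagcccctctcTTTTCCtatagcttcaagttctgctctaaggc
Tnfrsf25: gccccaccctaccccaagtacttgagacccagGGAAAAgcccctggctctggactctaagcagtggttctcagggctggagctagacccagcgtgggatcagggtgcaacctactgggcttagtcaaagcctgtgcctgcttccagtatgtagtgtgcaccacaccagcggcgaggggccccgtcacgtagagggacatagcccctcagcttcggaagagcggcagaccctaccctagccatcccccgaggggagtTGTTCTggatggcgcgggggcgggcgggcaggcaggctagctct
Depp1: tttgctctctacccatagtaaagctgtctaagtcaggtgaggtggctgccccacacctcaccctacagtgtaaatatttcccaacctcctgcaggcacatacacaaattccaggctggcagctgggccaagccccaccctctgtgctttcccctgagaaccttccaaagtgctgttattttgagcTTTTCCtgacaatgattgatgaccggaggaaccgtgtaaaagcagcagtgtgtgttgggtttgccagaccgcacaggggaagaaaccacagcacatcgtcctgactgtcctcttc

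The Slc15a2 window held AGAACA at positions -183 and -36 from the start, and the Tnfrsf25 window held it at position 7 after the start. This motif occurred in 19.0% of the 32851 promoter windows in the table. GGAAAA was found in the 3 printed windows and in 23.4% of the table. The second Tnfrsf25 window, which is not printed, held neither motif, so that AGAACA was in 2 and GGAAAA in 3 of the 4 windows. The exact letters GTAAACA, a form of the FOXO site, were in none of the 4, against 3.65% of the table. Other forms of the FOXO site were not searched or counted over the table. The printed Depp1 window does hold GTAAATA, the same letters with T in place of C. How often that form occurs in the table is not known. The E-box CACGTG (7.15% of the table) and the TATA box TATAAA (13.6%) were in none of them either. GC content was 46.3% for Slc15a2, 63.3% for Tnfrsf25 and 51.7% for Depp1. These matches describe the letters of each window only.

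The deposited unit was CPM, the share of reads scaled to 1000000, so each library summed to the same total. Depth, estimated from the spacing of low values, was 15863265 to 21309296 reads. Placebo library 5 stood apart: 63.4% of its CPM came from mitochondrially encoded genes, against 31.7% to 48.0% in the other 9 libraries. A median-ratio scaling, which sets each library by its typical gene, gave it a factor of 0.455 against 0.926 to 1.34 for the others. Each result is therefore given on deposited CPM and again after dividing by these factors, called rescaled CPM. The rescaling moved the median log2 difference of all tested genes from 0.27 to 0.01. The summed level of 5 cardiomyocyte markers was 6128 to 19849 CPM in placebo and 15961 to 27066 CPM in osimertinib libraries. Atrial muscle markers summed to 453 to 1423 CPM in placebo and 705 to 5195 CPM in osimertinib libraries, highest in osimertinib library 4. Among the atrial markers Bmp10 was at 0 in every library, so its absence does not stand for the list.

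A fit across 12350 genes (limma, adjusted p under 0.05) called 16 genes lower in osimertinib on deposited CPM, or 0.13%, and 817 higher, or 6.62%. On rescaled CPM it called 1291 lower, or 10.5%, and 1283 higher, or 10.4%. All 16 genes lower on deposited CPM were also lower on rescaled CPM, and all 5 chosen genes were among them, as their selection requires. On deposited CPM the chosen genes ranked 1 (Slc15a2), 2 (Misp), 3 (Tnfrsf25), 5 (Depp1) and 8 (Vsig2) among the 16 by size of fall. At the edge of the call stood Per2 and Mas1 just inside, with limma adjusted p of 0.0459 and 0.0480, and Hspa1b and ENSMUSG00000094634 just outside, with 0.0567 and 0.0572. In whole-tissue RNA, fewer cells of a type and less RNA per cell cannot be told apart, here and in every result that follows.

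Slc15a2, the peptide carrier, had the largest log2 fall and the widest spread. Its placebo libraries 1 to 5 held 9.33, 56.2, 10.4, 26.8 and 4.93 CPM, and its osimertinib libraries 1 to 5 held 2.28, 9.16, 0.995, 9.03 and 5.54 CPM. Placebo libraries 2 and 4 were far above the rest, whereas placebo libraries 1 and 3 lay just above osimertinib libraries 2 and 4 and placebo library 5 lay below 3 osimertinib libraries. The means were 21.5 ± 21.1 CPM in placebo and 5.40 ± 3.76 CPM in osimertinib (SD, n = 5 each), a ratio of 3.98. The log2 difference was -1.72 ± 0.38 (SE, on log2 of CPM plus 0.5). On rescaled CPM the placebo libraries ran from 8.84 to 41.8 and the osimertinib libraries from 0.863 to 7.61, with no overlap, and the log2 difference was -1.97 ± 0.54. By the ratio of group means Misp fell more than Slc15a2, with 4.64 against 3.98 on deposited and 5.09 against 4.23 on rescaled CPM.

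Misp, the cortical actin protein, was close to the limit of measurement in the treated hearts. Placebo libraries 1 to 5 held 4.79, 2.52, 4.55, 3.22 and 0.282 CPM, and osimertinib libraries 1 to 5 held 0.467, 1.11, 0.221, 0.950 and 0.554 CPM. These stand for about 97, 40, 86, 53 and 6 reads in placebo and about 8, 18, 4, 16 and 10 reads in osimertinib. Placebo libraries 1 to 4 exceeded every osimertinib library, and placebo library 5 was lower than all but 1 of them. The means were 3.07 ± 1.82 and 0.662 ± 0.365 CPM (SD, n = 5 each), a ratio of 4.64, and the log2 difference was -1.42 ± 0.34 (SE). Misp reached 1 CPM in 4 placebo libraries and 1 osimertinib library, so it passed the filter of 1 CPM in 5 libraries almost wholly through the group where it was high. On rescaled CPM placebo library 5 held 0.62 against an osimertinib maximum of 0.912, and the groups still overlapped.

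Tnfrsf25, the TL1A receptor, showed a narrower spread. Placebo libraries 1 to 5 held 14.4, 13.0, 16.9, 11.3 and 2.82 CPM, and osimertinib libraries 1 to 5 held 4.50, 4.40, 2.82, 5.52 and 2.44 CPM. The first 4 placebo libraries were at least 11.3 CPM and no osimertinib library passed 5.52 CPM, while placebo library 5 sat among the treated libraries. The means were 11.7 ± 5.35 and 3.94 ± 1.28 CPM (SD, n = 5 each), a ratio of 2.97, and the log2 difference was -1.31 ± 0.32 (SE). On rescaled CPM placebo library 5 rose to 6.20, above the osimertinib maximum of 4.66, and the log2 difference was -1.56 ± 0.25 (SE).

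Depp1, the FOXO-induced gene, was the most abundant of the 5. Placebo libraries 1 to 5 held 88.7, 177, 118, 163 and 22.4 CPM, and osimertinib libraries 1 to 5 held 49.3, 48.5, 30.1, 45.9 and 31.9 CPM. Placebo libraries 1 to 4 were all above the treated range, which spanned only 1.63-fold, and placebo library 5 was the lowest of all 10. The means were 114 ± 62.1 and 41.1 ± 9.32 CPM (SD, n = 5 each), a ratio of 2.77, and the log2 difference was -1.19 ± 0.36 (SE). On rescaled CPM placebo library 5 held 49.4, just under the 50.2 of osimertinib library 1 and above the other 4 treated libraries.

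Vsig2, the immunoglobulin superfamily gene, was the only 1 of the 5 whose groups did not overlap on deposited CPM. Placebo libraries 1 to 5 held 9.77, 17.8, 11.6, 11.6 and 9.48 CPM, and osimertinib libraries 1 to 5 held 7.71, 5.94, 3.59, 6.36 and 3.66 CPM. The lowest placebo library was thus above the highest treated library, and placebo library 5 lay close to placebo library 1. The means were 12.0 ± 3.35 and 5.45 ± 1.79 CPM (SD, n = 5 each), a ratio of 2.21, and the log2 difference was -1.09 ± 0.30 (SE). Rescaling turned placebo library 5 from the lowest to the highest placebo library, at 20.9 against 9.26 to 13.2 in the other 4, and the log2 difference became -1.36 ± 0.24 (SE).

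**Figure D1:**
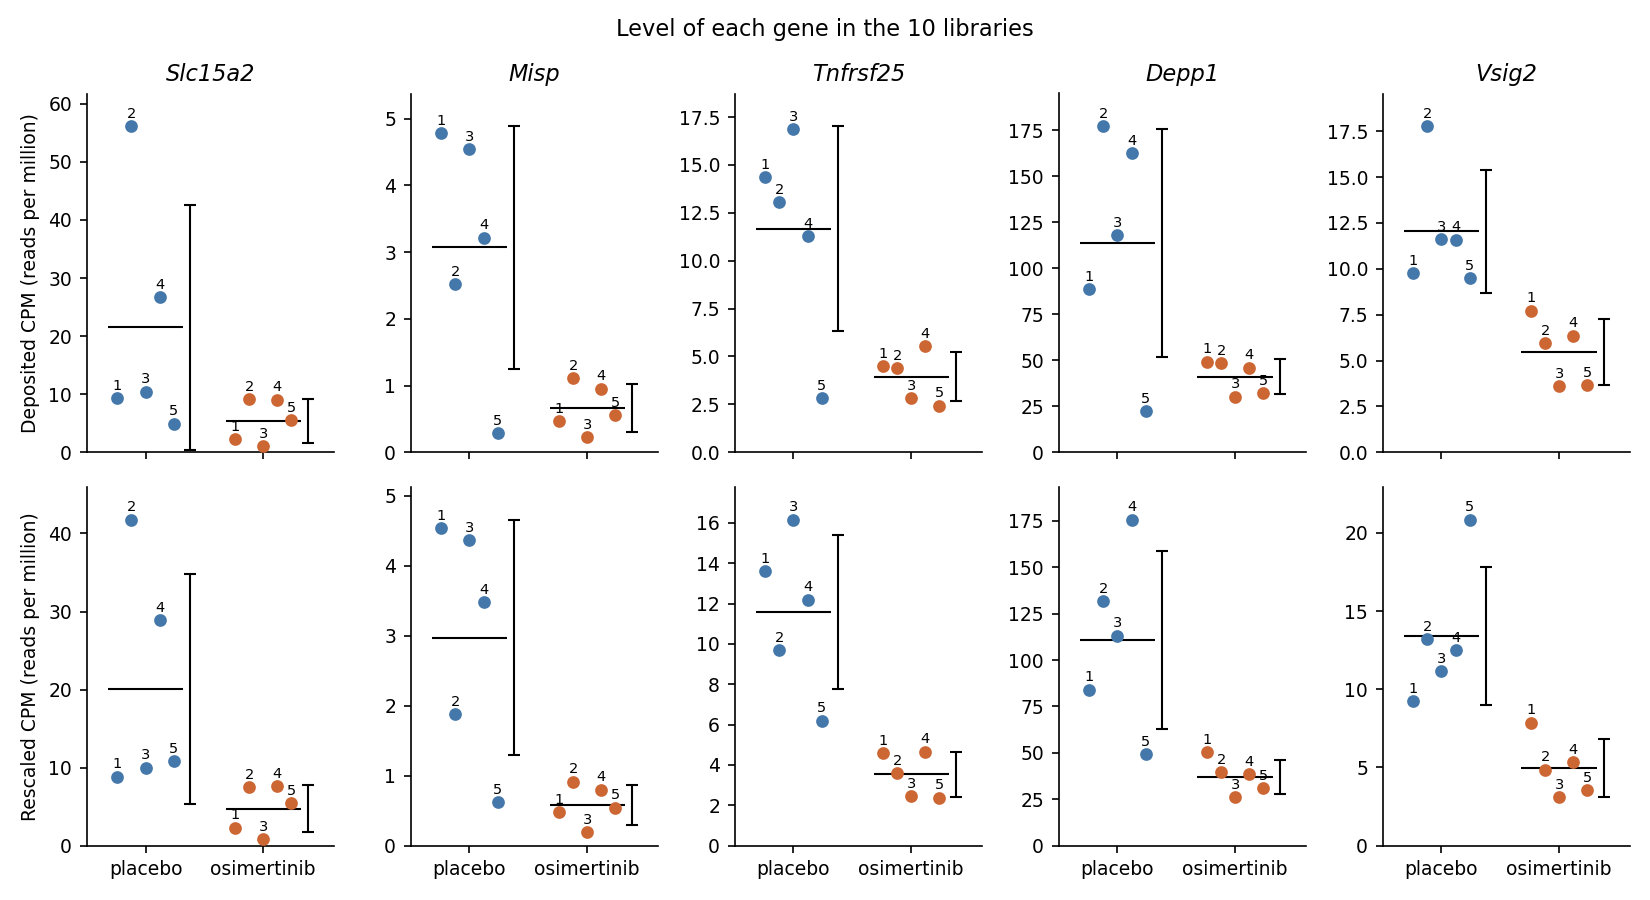
Level of each of the 5 genes in the 10 libraries, as deposited CPM (top) and rescaled CPM (bottom), each axis starting at 0. Points are libraries with their replicate number, horizontal lines are group means and bars are SD (n = 5). Placebo library 5 is the lowest placebo point for 5 of 5 genes on deposited CPM and for 3 of 5 on rescaled CPM.

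Per kilobase of exon, the order of the genes was the same in both groups. Depp1 was highest, at 83.8 CPM per kilobase in placebo and 30.3 in osimertinib. Vsig2 followed with 6.09 and 2.76, Tnfrsf25 with 5.13 and 1.73, Slc15a2 with 2.92 and 0.734, and Misp was last with 1.08 and 0.232. In placebo, Depp1 stood clear of the others, whereas each of the other neighbours in this order lay within the spread of the libraries.

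On deposited CPM the spread within groups was smaller for Vsig2 than for the other 4. The within-group SD of log2 values was 0.47 for the median tested gene on deposited CPM. It was 1.26 for Slc15a2, 0.86 for Misp, 0.75 for Tnfrsf25 and 0.88 for Depp1, and 0.40 for Vsig2. Slc15a2 thus varied more than 99.6% of tested genes, and Vsig2 more than 28.3%. After rescaling Vsig2 no longer stood apart: its SD was 0.45, beside 0.46 for Tnfrsf25, 0.55 for Depp1, 0.71 for Misp and 1.05 for Slc15a2, with 0.25 for the median gene. Each of the 5 then varied more than at least 87.5% of tested genes. The fit on deposited CPM draws each gene's variance strongly towards a common trend. The SEs of Slc15a2, Misp, Tnfrsf25 and Depp1 there are therefore smaller than their own libraries would give, and that of Vsig2 is larger.

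The groups of 1 of 5 genes (Vsig2) did not overlap on deposited CPM, where 0.081% of tested genes had every osimertinib library below every placebo library. On rescaled CPM it was 3 of 5 (Slc15a2, Tnfrsf25 and Vsig2), against 6.82% of tested genes. With placebo library 5 set aside, it was 5 of 5 on deposited CPM, against 3.2% of tested genes. Since the genes were selected on this contrast, nothing is read from these counts. In every one of the 5 genes, all 5 osimertinib libraries lay below the placebo mean. Osimertinib library 3 was the lowest treated library for 4 of 5 genes under both scalings, and osimertinib library 5 was the lowest for Tnfrsf25.

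No single library carried the direction of any of the 5 falls. On deposited CPM, leaving out each library in turn gave log2 differences of -2.10 to -1.25 for Slc15a2, -1.90 to -1.21 for Misp, -1.73 to -1.14 for Tnfrsf25, -1.70 to -0.96 for Depp1 and -1.22 to -0.95 for Vsig2. Placebo library 5 acted against the fall in all 5 on this scale: without it the differences were -2.10, -1.90, -1.73, -1.70 and -1.17. Slc15a2 depended most on placebo library 2, the library with 56.2 CPM, and without it the difference shrank to -1.25. The calls that chose the genes are given as a description of how far each rested on 1 library. On deposited CPM Misp and Tnfrsf25 met the call in 10 of 10 such fits. Slc15a2 did not on omitting placebo 2, Vsig2 on omitting osimertinib 3 or 5, and Depp1 on omitting any of placebo 2 and 4 and osimertinib 3 and 5. On rescaled CPM the log2 differences ran from -2.20 to -1.56 for Slc15a2, -1.89 to -1.35 for Misp, -1.76 to -1.43 for Tnfrsf25, -1.73 to -1.28 for Depp1 and -1.53 to -1.19 for Vsig2. There Tnfrsf25, Depp1 and Vsig2 met the call in 10 of 10 fits, while Slc15a2 did not on omitting placebo 2, osimertinib 3 or osimertinib 5, nor Misp on omitting placebo 1, osimertinib 3 or osimertinib 5.

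**Figure D2:**
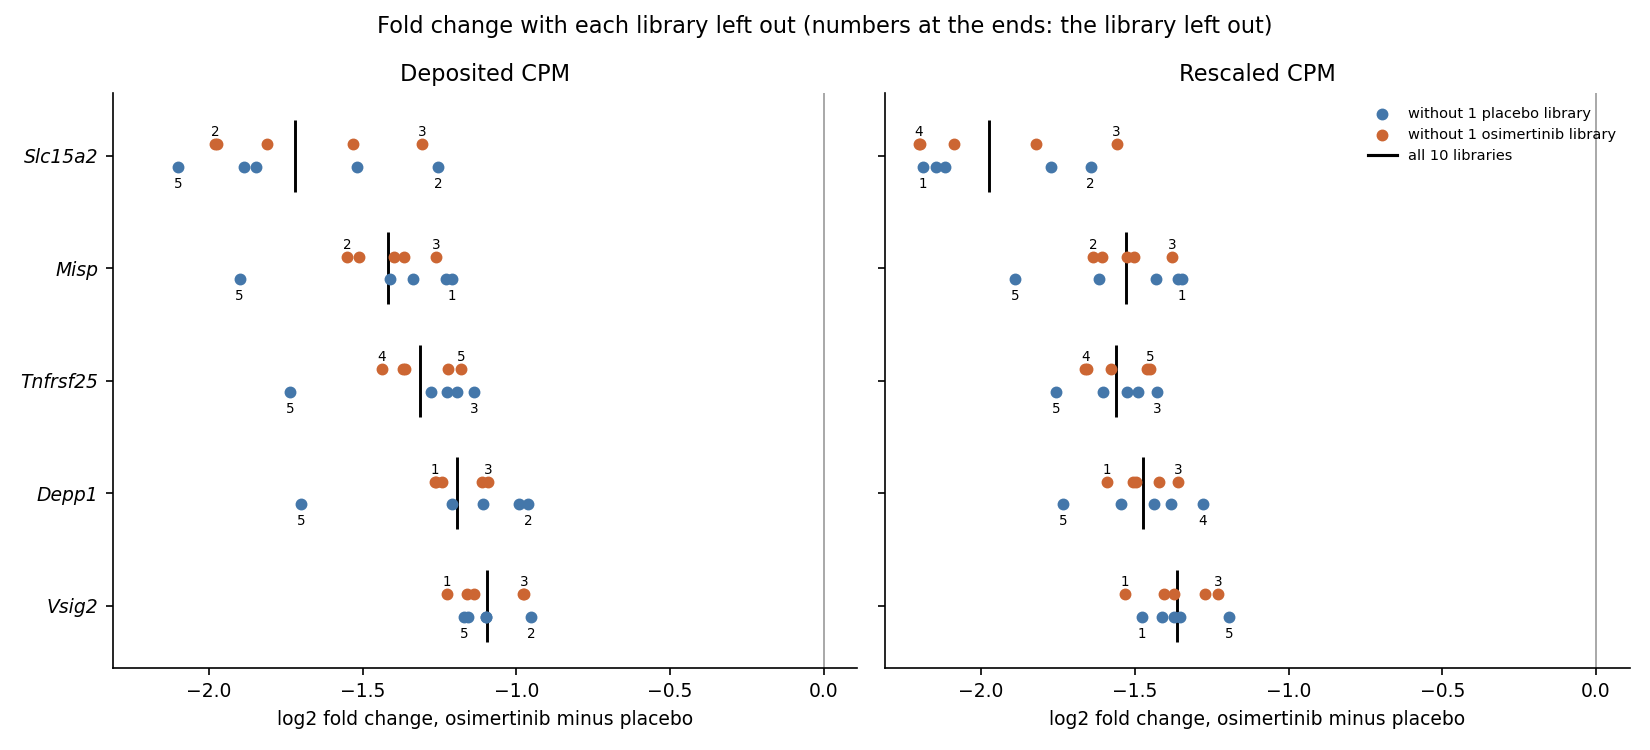
Log2 difference, osimertinib minus placebo, of each gene when 1 library is left out, on deposited CPM (left) and rescaled CPM (right). Black lines are the value from all 10 libraries and numbers at the ends give the library left out. All values lie below 0, from -2.10 to -0.95 on deposited CPM, and placebo library 5 gives the left-most point of 4 genes there.

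On rescaled CPM the 5 genes did not all vary together within a group, though some pairs did. Over all 10 libraries, Pearson's r between pairs of them on log2 rescaled CPM ran from 0.52 to 0.93 (10 pairs), which the shared group difference raises. With each group centred on its own mean, r ran from -0.45 for Misp and Vsig2 to 0.84 for Misp and Tnfrsf25, with a median of 0.19. Depp1 had 0.67 with Tnfrsf25 and 0.60 with Misp. Slc15a2 had 0.10 to 0.52 with those genes, and Vsig2 had -0.45 to 0.17 with the rest. Placebo library 5 lay at -1.44 for Misp and 0.67 for Vsig2 from the placebo mean of log2 rescaled CPM. Such correlations were not computed on deposited CPM, where that library was the lowest placebo library for all 5 genes. These are descriptions over libraries that share depth and composition.

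The genes most like each of the 5 over the 10 libraries, by Pearson's r on log2 rescaled CPM, were Paqr8 (0.93) and Zfp2 (0.92) for Slc15a2. For Misp they were Adam8 (0.97) and Gmeb1 (0.97). For Tnfrsf25 they were Rbm28 (0.98) and Zcchc8 (0.98). For Depp1 they were Atp6v0a1 (0.98), a subunit of the lysosomal proton pump, and Cacna1c (0.96), the pore of the cardiac L-type calcium channel. For Vsig2 they were Rps6kb2 (0.99), a ribosomal protein S6 kinase, and Hmg20b (0.99). With groups centred, the nearest were Amy1 (0.92) and Usp40 (0.89) for Slc15a2, Chtf8 (0.96) and Mfsd4b1 (0.95) for Misp, Pxdc1 and Guca1b (0.96 each) for Tnfrsf25, and Cobll1 (0.96) and Rai1 (0.94) for Depp1. Rps6kb2 and Hmg20b again headed the list for Vsig2 (0.96 each), the only gene of the 5 that kept its nearest pair.

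The nearest tested genes on either side of each of the 5 were read next, since they were not used in the choice. Several lie so close to the chosen gene that their values may not be independent of it, which was not tested. On deposited CPM, 0 of these 10 neighbours were called in either direction by limma or by voom, and 1, Nrgn, had an unadjusted p under 0.05. On rescaled CPM, 5 of 10 were called lower and 0 higher, where 10.5% of tested genes were called lower.

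Palm, which encodes paralemmin of the plasma membrane, ends 93 bases before Misp on the same strand and had a rescaled log2 difference of -0.62 ± 0.16 (SE, limma adjusted p = 0.0273). Plekhg5, a guanine nucleotide exchange factor gene, ends 534 bases before Tnfrsf25 and had -0.75 ± 0.15 (SE, limma adjusted p = 0.0140). Rassf4, which encodes a Ras association domain protein and contains Depp1, had -0.78 ± 0.16 (SE, limma adjusted p = 0.0148). Depp1 is much the more abundant of that pair, with 114 CPM in placebo against 17.2 for Rassf4. The libraries were strand-specific by the design text, but whether the counting used strand is not given there, so reads from Depp1 and from introns of Rassf4 may not be fully separable.

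Vsig2 had a called neighbour on both sides. Esam, an endothelial adhesion molecule of the same CTX group, ends 936 bases before it and had a rescaled log2 difference of -0.57 ± 0.12 (SE, limma adjusted p = 0.0152). Nrgn, which encodes the calmodulin-binding protein neurogranin, lies 287 bases beyond its end on the other strand and had -0.997 ± 0.251 (SE, limma adjusted p = 0.0229). Plekhg5, Rassf4 and Esam kept the rescaled call in 10 of 10 fits without 1 library. Nrgn lost it on omitting placebo 2 or osimertinib 5 (limma adjusted p up to 0.0634), and Palm on omitting any of placebo 1 and 2 and osimertinib 2, 3 and 5 (limma adjusted p up to 0.0735). The flanking genes of Slc15a2, Cd86 and Iqcb1, had rescaled differences of 0.16 and -0.05 and neither was called.

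**Figure D3:**
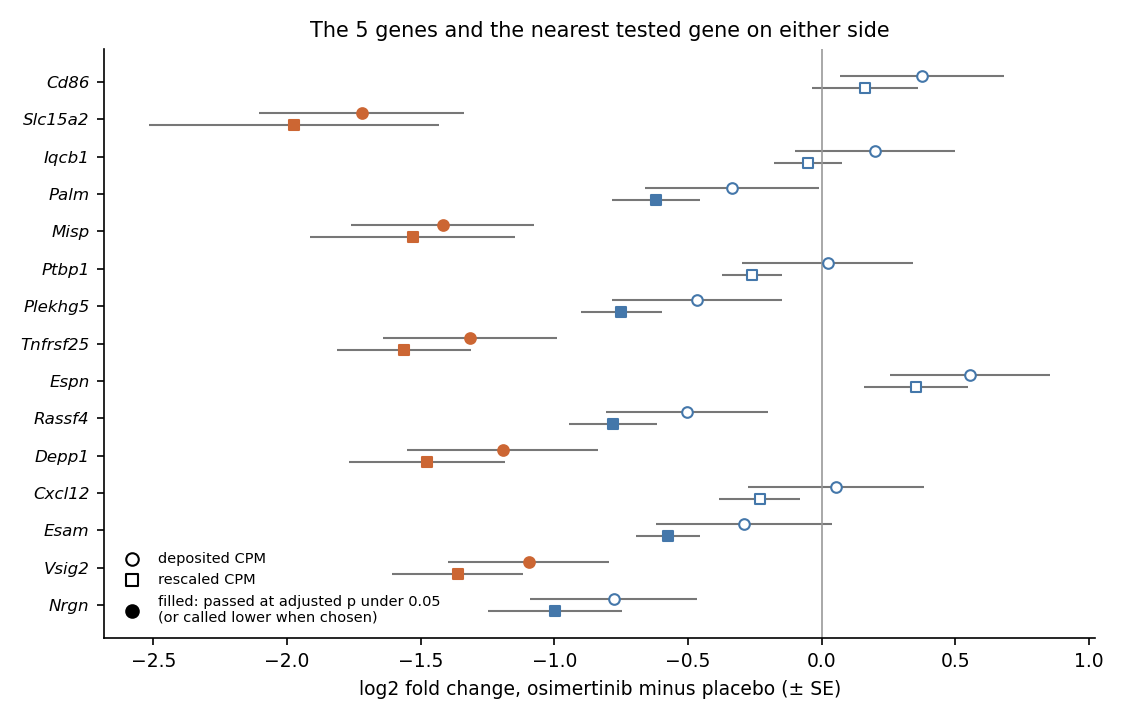
Log2 difference, osimertinib minus placebo, with SE, of each of the 5 genes and its nearest tested gene on either side, on deposited (circles) and rescaled CPM (squares), filled where called. On rescaled CPM Palm, Plekhg5, Rassf4, Esam and Nrgn were called lower, while none of the 10 neighbours was called on deposited CPM.

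Most genes of the wider pathways were not called. Over 6 lists with 96 tested genes, 7 were called higher and 0 lower by limma on deposited CPM (20 higher and 0 lower at an unadjusted p under 0.05, and 6 and 0 called by voom), and 10 higher and 11 lower on rescaled CPM, beside the shares of all genes given above.

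Of the genes of peptide transport and its ligands' sensors, 12 of 16 were tested. PEPT2 carries bacterial peptides that NOD1 and NOD2 detect in the cytosol. None was called on deposited CPM by limma or voom (4 at an unadjusted p under 0.05), where the list's median log2 difference was 0.22 against 0.27 for all genes. The related carriers Slc15a3 and Slc15a4 had 4.90 and 6.38 CPM in placebo and 4.98 and 7.82 CPM in osimertinib, and Slc15a5 was at 0 in every library. On rescaled CPM 2 of the 12 genes, the receptors, were called lower, where 10.5% of all tested genes were. Nod1 had -0.56 ± 0.11 (SE, limma adjusted p = 0.0132) and Nod2 -0.82 ± 0.17 (SE, limma adjusted p = 0.0144). Both kept the call in 10 of 10 fits without 1 library. On deposited CPM Nod1 had -0.28 and Nod2 -0.57, and Nod2 was called only without placebo library 5 (limma adjusted p = 0.0225).

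Around death receptor 3, 21 of 23 genes were tested. Its ligand gene Tnfsf15 was at 0 in every library, and its adaptor gene Tradd had log2 differences of 0.09 on deposited and -0.17 on rescaled CPM, called on neither. Fadd, the adaptor of death receptors that recruits caspase 8, was called higher on both scales, with 3.65 ± 0.70 CPM in placebo and 7.17 ± 1.14 CPM in osimertinib (SD, n = 5 each). Its log2 difference was 0.89 ± 0.29 (SE, limma adjusted p = 0.0490), and the call was lost on omitting any of placebo 1, 3 and 4 and osimertinib 2 to 5 (limma adjusted p up to 0.184). Its rescaled difference of 0.63 ± 0.15 (SE, limma adjusted p = 0.0204) was not called on omitting any of placebo 1 and 2 and osimertinib 3 and 5 (limma adjusted p up to 0.0622). On rescaled CPM 5 of the 21 genes were called lower, where 10.5% of all tested genes were. Among them were Tnfrsf10b, the mouse TRAIL death receptor, at -0.84, Ikbkb, a kinase of the NF-kB pathway, at -0.68, and Casp8 at -0.60. Tnfrsf10b and Ikbkb kept the call in 10 of 10 fits without 1 library. Casp8 lost it on omitting any of placebo 1 and 2 and osimertinib 3 and 5 (limma adjusted p up to 0.0672). On deposited CPM Tnfrsf10b was called lower only without placebo library 5 (limma adjusted p = 0.0340). The list's median was -0.01 on deposited and -0.29 on rescaled CPM.

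T cells are the best-known site of death receptor 3, so their markers were read in the same libraries. None of 9 T cell markers passed the filter, and their summed level was 1.13 to 3.47 CPM in placebo and 1.94 to 4.04 CPM in osimertinib libraries. The part of T cells in the Tnfrsf25 values was not tested.

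Of the 16 tested genes of cortical actin and spindle positioning, the relative Misp3 rose, whereas Misp had been chosen for its fall. Misp3 was called higher, from 1.20 ± 0.90 to 3.04 ± 0.69 CPM (SD, n = 5 each), with a log2 difference of 1.19 ± 0.32 (SE, limma adjusted p = 0.0128), and of 1.00 ± 0.29 on rescaled CPM (SE, limma adjusted p = 0.0346). It lost the deposited call without placebo library 1 or 5 (limma adjusted p up to 0.0620), and the rescaled call in 6 of 10 such fits, on omitting any of placebo 1, 2 and 5 and osimertinib 2, 3 and 5 (limma adjusted p up to 0.0905). Ezr, which encodes the membrane to actin linker ezrin, was called higher on rescaled CPM only, at 0.48. The focal adhesion gene Pxn and the cortical actin gene Cttn were called lower there, at -0.51 and -0.33. All 3 calls were lost on omitting any of placebo 1 and 2 and osimertinib 3 and 5, and that of Cttn also on omitting placebo 5, osimertinib 2 or osimertinib 4 (limma adjusted p up to 0.120). On deposited CPM Ezr was called higher only without placebo library 2 (limma adjusted p = 0.0454).

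FOXO factors and their targets, the list to which Depp1 relates, held more called rises than the other lists. Of 25 tested genes, 5 were called higher and 0 lower on deposited CPM, where 6.62% of all tested genes were called higher and 0.13% lower, and the list median was 0.64 against 0.27 for all genes. On rescaled CPM 7 were called higher and 0 lower, where 10.4% of all tested genes were called higher and 10.5% lower, and the median was 0.36 against 0.01. Cardiomyocyte markers moved the same way: the median of 5 was 0.97 on deposited and 0.68 on rescaled CPM, with 2 called higher on deposited CPM (Actn2 at 1.31 and Tnnt2 at 1.08) and Actn2 alone on rescaled CPM (1.02). Of these calls, that of Tnnt2 held in 5 of 10 fits without 1 library and was lost on omitting any of placebo 1 and 5 and osimertinib 2, 3 and 5. That of Actn2 held in 10 of 10 on deposited and 5 of 10 on rescaled CPM, where it was lost on omitting any of placebo 1, 2 and 5 and osimertinib 3 and 5 (limma adjusted p up to 0.0827). Several genes of the FOXO list are themselves muscle genes, and the part of cardiomyocyte content in the list was not tested. The 4 with the lowest p were Sod2, the mitochondrial superoxide dismutase, Fbxo32 and Trim63, the muscle ubiquitin ligases atrogin-1 and MuRF1, and Pdk4, a kinase that restrains pyruvate dehydrogenase. Fbxo32 went from 17.3 ± 7.35 to 42.9 ± 9.21 CPM (SD, n = 5 each), with log2 differences of 1.41 ± 0.33 (SE, limma adjusted p = 0.00518) and, rescaled, 1.13 ± 0.16 (SE, limma adjusted p = 0.00867). It was called in all 20 fits without 1 library, as a rise. Depp1 was chosen for its fall in these libraries, so nothing is read from its opposite direction.

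Sod2 went from 97.2 ± 56.5 to 261 ± 104 CPM (SD, n = 5 each), a log2 difference of 1.58 ± 0.36 (SE, limma adjusted p = 0.00417). On rescaled CPM it was 1.296, and that call was lost on omitting any of placebo 1, 2 and 5 and osimertinib 3 and 5 (limma adjusted p up to 0.0807). Trim63 had 1.16 ± 0.33 (SE, limma adjusted p = 0.0210) and lost the call on omitting placebo 1, osimertinib 3 or osimertinib 5 (limma adjusted p up to 0.0981). Rescaled, Trim63 had 0.88 and was not called on omitting any of placebo 1 and 2 and osimertinib 3 and 5 (limma adjusted p up to 0.0753). Pdk4 had 1.501 ± 0.394 (SE, limma adjusted p = 0.0123), was not called without placebo library 5 (limma adjusted p = 0.157), and was not called on rescaled CPM (1.22, limma adjusted p = 0.0818) except on omitting placebo 2 or osimertinib 2 (limma adjusted p down to 0.0460). The factor genes themselves had log2 differences of 0.46 for Foxo1 and 0.76 for Foxo3 on deposited CPM, called for neither. Foxo3 was called higher on rescaled CPM, at 0.49 (limma adjusted p = 0.0306), though not on omitting any of placebo 1, 2 and 5 and osimertinib 3 and 5 (limma adjusted p up to 0.0789).

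**Figure D4:**
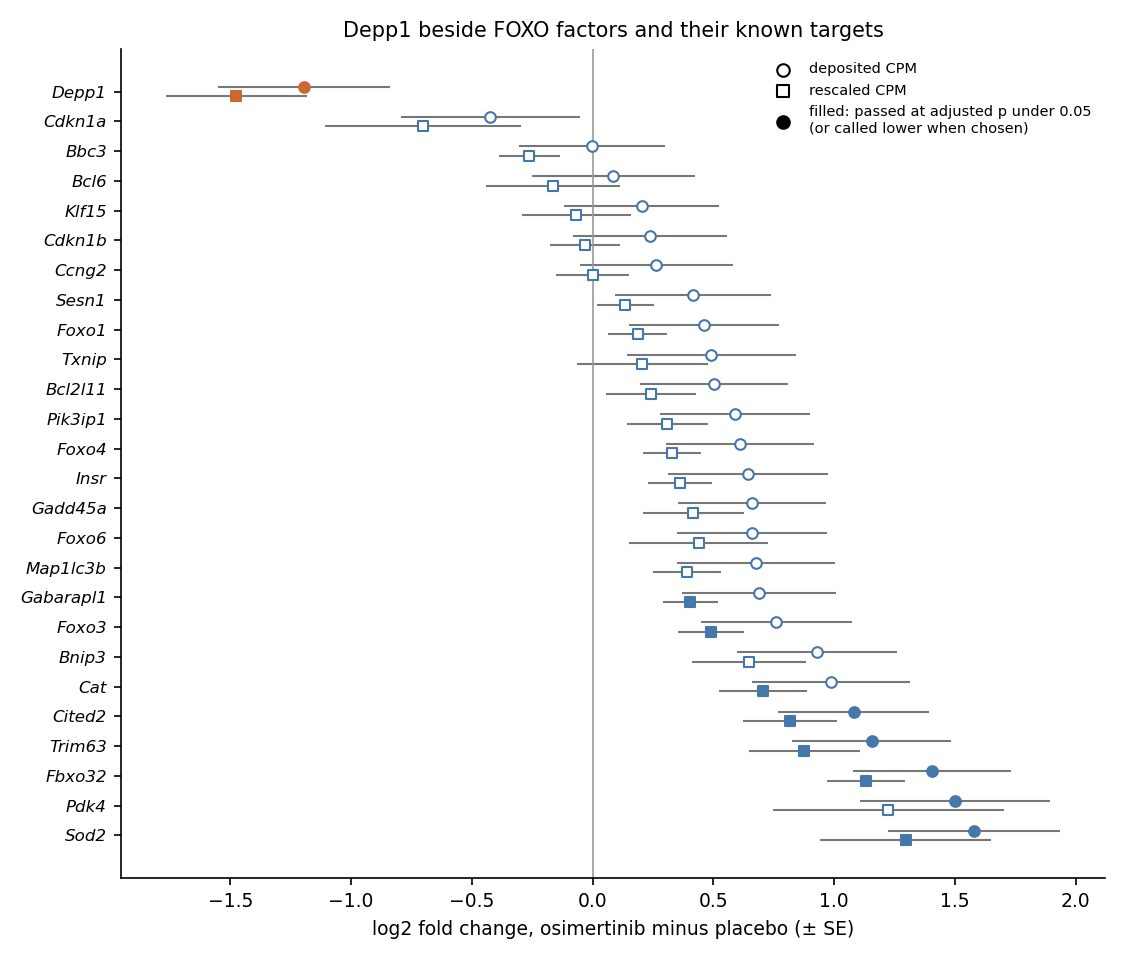
Log2 difference, osimertinib minus placebo, with SE, of Depp1 and the tested FOXO factors and targets, on deposited (circles) and rescaled CPM (squares), filled where called. Depp1, chosen for its fall, lies at -1.19 and -1.47. The called genes of the list, 5 on deposited and 7 on rescaled CPM, all lie above 0.

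Among 13 tested glucocorticoid targets none was called on deposited CPM by limma or voom, 0 had an unadjusted p under 0.05, and the median was -0.12. Sgk1, a salt and stress responsive kinase gene, was called lower on rescaled CPM at -0.82 ± 0.24 (SE, limma adjusted p = 0.0335), a call lost in 7 of 10 fits without 1 library, with placebo 1 to 4 and osimertinib 3 to 5 the ones whose omission ended it (limma adjusted p up to 0.0857). On deposited CPM it had -0.54 and was called only without placebo library 5 (limma adjusted p = 0.0219). Fkbp5, a chaperone gene induced by glucocorticoids, had -0.12 on deposited and -0.39 on rescaled CPM and was called on neither. Among 9 tested genes of the VSIG and CTX family, Esam alone was called, lower and on rescaled CPM, apart from a call on deposited CPM without placebo library 5 (limma adjusted p = 0.0412). Vsig10 had 0.17 and -0.09, Cxadr, the coxsackievirus and adenovirus receptor gene, had 0.55 and 0.28, and Vsig1 was at 0 in every library.

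Markers of other cell types were read as sums beside the 5 genes. Endothelial markers, relevant to Esam beside Vsig2, summed to 753 to 2273 CPM in placebo and 1195 to 1676 CPM in osimertinib, and on rescaled CPM to 1214 to 1835 and 1068 to 1372, where 2 of 6 were called lower. Those were Tie1, whose call held in 2 of 10 fits without 1 library, those omitting placebo 3 or osimertinib 1 (limma adjusted p up to 0.113), and Egfl7, whose call held in 5 of 10 and was lost on omitting any of placebo 1 and 2 and osimertinib 2, 3 and 5 (limma adjusted p up to 0.0843). Mesothelial markers summed to 3.28 to 26.4 CPM in placebo and 5.93 to 52.0 CPM in osimertinib, with 1 of 6 tested, and epithelial markers to 0.485 to 2.21 CPM and 0.444 to 4.81 CPM, with 1 of 4 tested. Schwann and glial markers summed to 8.87 to 24.9 and 7.02 to 29.5 CPM. Over 13 marker lists, 43 of 67 genes were tested, with 5 called higher and 0 lower on deposited CPM, where 6.62% of all tested genes were called higher and 0.13% lower. On rescaled CPM 3 were called higher and 3 lower, where 10.4% and 10.5% of all tested genes were. The mitochondrial share of CPM was 38.1% to 63.4% in placebo and 31.7% to 45.2% in osimertinib libraries. The part of cell composition and of the mitochondrial share in the 5 falls was not tested.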

How the data were processed

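Gene-level CPM of 10 libraries were deposited by the authors in 1 table. The series' design text gives STAR alignment against GRCm38 and RSEM quantification, whereas the submitters' processing notes name cutadapt 1.9, HISAT2 2.0.4, StringTie 1.3.4d, DESeq2 and another build. Which of them made the table is not given. Its columns sum to 1000000 with no factor between libraries, and 90.7% to 93.4% of low values were whole reads within 0.01. Reads are therefore estimates (15863265 to 21309296 per library), and no count test was used for the main fit. Only voom, run as an alternative, took these estimated reads. Of 45706 gene IDs, 45143 (98.8%) matched GENCODE M21.

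Genes with at least 1 CPM in 5 of 10 libraries (12350) were tested with limma 3.58.1 in R 4.3.3 on log2(CPM + 0.5) with an intensity trend, two-sided, with Benjamini-Hochberg adjustment and a threshold of 0.05. Median-ratio rescaled values were tested likewise. The prior degrees of freedom were 72.9 on deposited and 4.45 on rescaled CPM. On simulated data with 12350 genes, 99% of genes changed by a log2 of 2 were recovered for this comparison. The simulation drew noise independently for each gene and held no smaller change. It therefore does not describe recovery of falls of -1.72 to -1.09, or shifts shared by many genes of a library. Each library was left out in turn. The alternatives were other pseudocounts, filters, scalings and weights, a replicate block, and voom on estimated reads.

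The 5 genes and all lists were chosen with earlier results of these data known. Genes named besides them are list genes called on either scale (up to 4 per list by deposited p), close relatives and partners, the nearest tested neighbours, and for each of the 5 genes the most correlated genes. Per2, Mas1, Hspa1b and ENSMUSG00000094634 are named for their place at the threshold, and Bmp10 as a marker at 0. Rank was by p on deposited CPM.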

Additional observations from a re-analysis of the deposited data

Results flagged for a closer look

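In 6 of 86 groups of 5 libraries examined, 1 library stood apart from the other 4 by Dixon's criterion at the 95% level, which chance alone gives in about 1 in 20 groups. Vsig2 was 17.8 CPM in placebo library 2, against 9.48 to 11.6 in the other placebo libraries. Vsig10 was 6.26 CPM in osimertinib library 5, against 8.79 to 9.29. Pdk4 was 161 CPM in placebo library 2, against 8.35 to 45.5. Sgk1 was 35.0 CPM in placebo library 5, against 159 to 192. Ptbp1, the gene after Misp, was 46.2 CPM in osimertinib library 5, against 59.3 to 64.2. Rassf4 was 16.9 CPM in osimertinib library 4, against 10.1 to 11.6. All 6 values are on deposited CPM.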

How the results depend on the processing

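The 5 genes kept a negative log2 difference under every alternative that gave a value. All 5 stayed called lower with pseudocounts of 0.1 and 2, no trend, quantile normalization, rescaling, array weights and the replicate block. Their selection requires the call under rescaling, and the other settings use the libraries that chose them, so nothing is read from these calls. Without mitochondrially encoded and haemoglobin genes Slc15a2 lost its call, and with voom Depp1 did. Misp has no value at a mean of at least 5 CPM. With no filter, 21622 genes were tested and limma called 0 genes higher and 0 lower (3269 at an unadjusted p under 0.05). None of the 5 genes and no pathway gene was called there. Leaving out 1 library gave Vsig2 log2 differences of -1.53 to -0.95 over both scalings.

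Counts of calls moved far more. Genes called lower numbered 16 on deposited CPM, 10 with a pseudocount of 0.1, 1291 rescaled and 1430 with quantile normalization. They numbered 112 without mitochondrially encoded and haemoglobin genes, 420 with array weights and 9 with voom. On leaving out 1 library from deposited CPM they numbered 238 without placebo library 5 and 5 to 20 without any other. On rescaled CPM such fits gave 299 to 1362. Genes called higher numbered 817, and 1283 rescaled, 513 without mitochondrially encoded and haemoglobin genes, and 2159 with array weights. They numbered 213 to 1566 on leaving out 1 library over both scalings. Pathway genes called lower numbered 0, and 11 rescaled, 11 with quantile normalization, 12 with array weights and 0 to 13 on leaving out 1 library over both scalings. Pathway genes called higher numbered 7, 18 with array weights and 1 to 14 on leaving out 1 library. The cause was not tested.

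Whether replicate numbers pair the libraries was not settled: the correlation of same-numbered libraries ran from -0.33 to 0.47, and 3 of 5 correlated best with their own number. Those were numbers 1, 2 and 3, while placebo 4 correlated best with osimertinib 5 and placebo 5 with osimertinib 4. With the number as a block, 34 genes were called lower and 1286 higher, and after rescaling 1355 and 1594, with 13 pathway genes lower and 12 higher. Depth limits Misp most, with 4 to 18 estimated reads in osimertinib libraries.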
